A study of Mus musculus with 71 samples.

Results

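Cerebellum RNA of 18-month-old Csbm/m mice given nicotinamide riboside was compared with cerebellum RNA of 18-month-old wild-type mice given the same compound. The groups were taken from the sample labels and held 4 Csbm/m arrays (written Csb below) and 5 wild-type (WT) arrays, 9 of the 71 arrays of the series. All were male mice on a C57BL/6 background, fed house chow, and received 500 mg/kg of nicotinamide riboside (NR) a day by intraperitoneal injection for 1 week. Csbm/m mice carry a mutation of Csb in both copies in every tissue, and the labels do not describe the allele further. The same arm of the study held 3 Csb and 3 WT arrays of 18-month-old mice given saline, 3 Csb and 4 WT arrays of 4-month-old mice given NR, and 3 Csb and 4 WT arrays of 4-month-old mice given saline, 29 arrays in all. The other 42 arrays came from mice on 4 diets. The labels number the arrays of a group without naming the mouse behind each, so a p-value covers only array-to-array spread, which may be technical. The sample names also carry a running number, which they do not explain. In old mice the same number stands on WT replicate 2 of the NR group and on Csb replicate 2 of the saline group.

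CSB, encoded by Ercc6, is a chromatin remodeller that acts when RNA polymerase stalls at DNA damage, and starts transcription-coupled repair there. Its loss in people causes Cockayne syndrome, a disorder of early ageing with degeneration of the cerebellum and other parts of the nervous system. NR is a vitamin B3 form that cells convert to NAD+, the coenzyme that PARP enzymes consume at DNA breaks and that sirtuins use for deacetylation. The comparison asks which RNAs still set Csb cerebellum apart from WT cerebellum once both have received the NAD+ precursor.

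Each array read 25697 probes as 1-colour fluorescence of bead-bound RNA. Levels below are log2 normalized intensities, so a difference of 1 is a doubling of signal, and a level can be compared between arrays for a given probe but not between probes. Of the probes, 13948 were detected on at least 3 of the 29 arrays and were tested with limma over all 8 injection groups. A probe is written as called when its Benjamini-Hochberg adjusted p was under 0.05, and as detected on an array when its detection p was under 0.01. The number of arrays limits the precision. Ercc6 has 0 probes in the gene table used, so the mutated gene could not be read on any array. Every array is labelled cerebellum, so the tissue label could not be tested against another tissue. Levels of markers of its neurons are given without such a test. Pcp2, a marker of Purkinje cells, lay between 12.92 and 13.37 on the Csb arrays and between 11.32 and 13.02 on the WT arrays. Gabra6, a GABA receptor subunit of cerebellar granule neurons, lay between 8.07 and 8.71 on the Csb arrays and between 8.10 and 9.15 on the WT arrays.

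Some arrays stood apart. Between 48.7% and 52.1% of probes were detected on the Csb arrays, against 47.3% to 52% on the WT arrays. Their means were 50.4% and 49.1% (exact permutation test, two-sided, p = 0.278, smallest possible p 0.0159). With so few arrays this does not show that the means were equal. The 4 Csb arrays resembled each other closely, with correlations between pairs of 0.986 to 0.991 across probes. The 5 WT arrays correlated at 0.953 to 0.986. WT replicates 2 and 3 had the lowest mean correlation with the other 8 arrays, at 0.963 and 0.968. The number of called probes changed strongly when WT replicate 1 was left out, as given below with the ribosomal genes. The array labelled Csb replicate 2 of the 4-month-old NR group went against its label at several of the genes described below. At Tmem254a it kept to its label, at 8.22, below the lowest of the 16 WT arrays of the arm (8.74). It is none of the 9 arrays, but it enters the estimate of spread.

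Of the 13948 probes, 8 were called between Csb and WT (0.0574%), 2 higher and 6 lower, while 1965 had an unadjusted p under 0.05. The 2 higher probes both read Gpnmb. The 6 lower probes read Gpd2, Ncoa4, Thap4, Tmem254a, Entpd4 and Inpp5f, and on none of the 8 did the Csb arrays overlap the WT arrays. The calls used these same arrays, so this separation adds no support to them. Over all tested probes, all Csb arrays lay above all WT arrays on 1.38% and below on 1.55%. Leaving out the array labelled Csb replicate 2 of the 4-month-old NR group gave 18 calls (0.129%), 9 higher and 9 lower, with the same 8 among them.

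**Figure D1:**
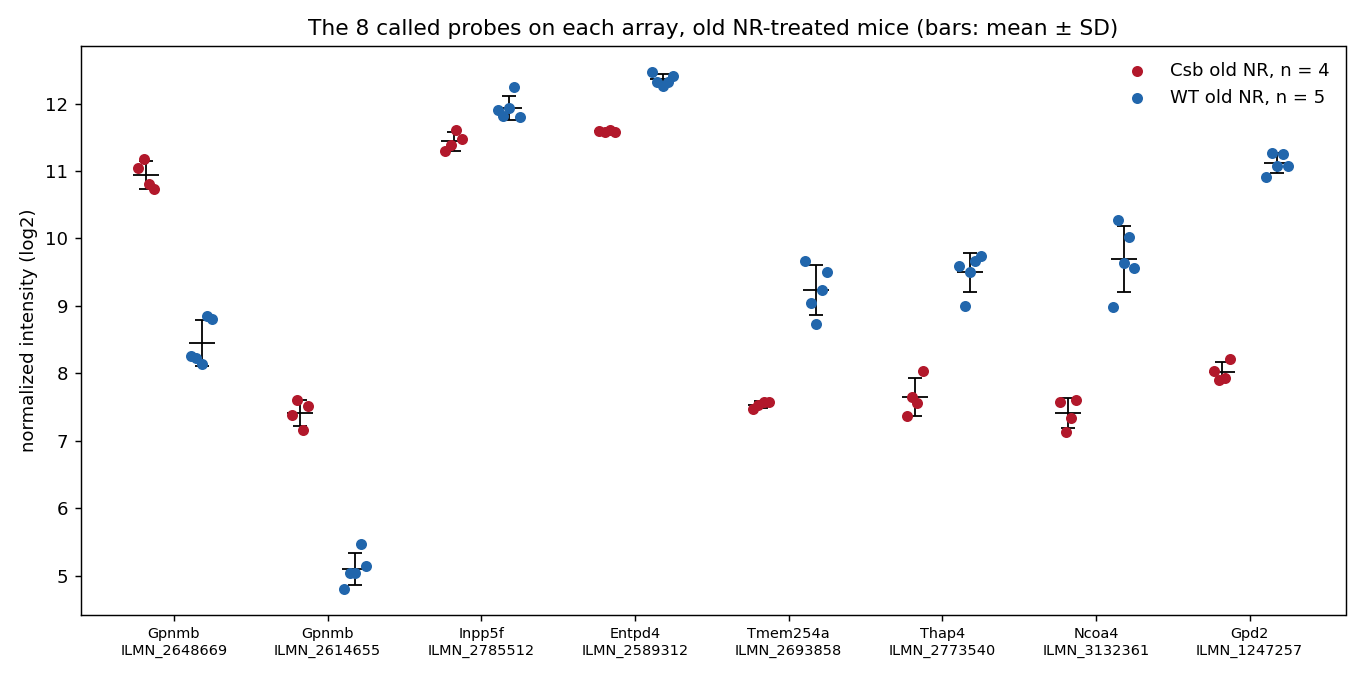
Each point is 1 array of 18-month-old NR-treated mice, with the probe along the horizontal axis and its normalized intensity (log2) on the vertical axis, Csb in red (4 arrays) and WT in blue (5 arrays); black bars give the mean and SD. The groups do not overlap on any of the 8 probes, which were called on these same arrays. Gpd2 shows the widest gap, with means of 8.03 in Csb and 11.11 in WT.

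Gpnmb, a transmembrane glycoprotein of phagocytic microglia and macrophages, was the only gene with called probes higher in Csb. Probe ILMN_2648669 read 11.05, 11.18, 10.80 and 10.73 on the Csb arrays, against 8.26, 8.23, 8.14, 8.85 and 8.80 on the WT arrays. The lowest Csb array was thus well above the highest WT array. The group means were 10.94 ± 0.21 in Csb (SD, n = 4) and 8.46 ± 0.34 in WT (SD, n = 5), a log2 difference of 2.48 (SE 0.35, 5.6-fold, limma adjusted p = 0.000529). The second probe, ILMN_2614655, read 7.39, 7.60, 7.16 and 7.52 on the Csb arrays, against 4.81, 5.05, 5.04, 5.48 and 5.14 on the WT arrays. It was detected on 4 of 4 Csb arrays and on 0 of 5 WT arrays, so its fold is a lower bound, at least 3.07-fold higher in Csb (limma adjusted p = 1.23e-07). The other 2 Gpnmb probes on the array, ILMN_1236420 and ILMN_2918882, were not detected on any of the 9 arrays and were not tested. In whole tissue, more cells of a type and more RNA per cell cannot be told apart.

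The same direction was seen for Gpnmb in the other groups of the injection arm. After saline, 18-month-old Csb arrays read 11.14, 11.63 and 11.55 on ILMN_2648669, against 8.11, 8.24 and 7.76 on WT arrays (log2 difference 3.41, SE 0.43, limma adjusted p = 4.5e-05, where 0.229% of probes were called). At 4 months after NR, Csb arrays read 10.26, 7.37 and 10.26, against 7.34, 7.35, 7.57 and 7.58 on WT arrays (log2 difference 1.84, SE 0.40, limma adjusted p = 0.252). The value of 7.37, inside the WT range, came from the array labelled replicate 2 named above. At 4 months after saline, Csb arrays read 9.64, 10.05 and 9.42, against 7.65, 7.46, 7.08 and 7.66 on WT arrays (log2 difference 2.24, SE 0.40, limma adjusted p = 0.0176, where 0.0502% of probes were called). The change of the genotype difference with NR in old mice was -0.92 (SE 0.56, limma adjusted p = 0.801), and that with age under NR was 0.65 (SE 0.54, limma adjusted p = 0.719). Neither passed the threshold, which does not show that the differences were equal. On the 4 diets, tested as a separate arm, the log2 difference was 1.43 on standard diet, 1.44 on high-fat diet and 1.43 with resveratrol, each called by limma. Of all probes, 13.8%, 8.63% and 18.4% were called on those diets. Under caloric restriction the Gpnmb difference was 0.72 (SE 0.20, limma adjusted p = 0.117).

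Ncoa4, the receptor that hands ferritin to autophagosomes and so releases iron, was lower in Csb. Its probe ILMN_3132361 read 7.57, 7.13, 7.34 and 7.61 on the Csb arrays, against 8.98, 10.28, 9.64, 10.02 and 9.56 on the WT arrays. The means were 7.41 ± 0.22 in Csb and 9.69 ± 0.50 in WT (SD, n = 4 and 5), a log2 difference of -2.28 (SE 0.25, 4.87-fold, limma adjusted p = 9.65e-06). Every Csb array lay more than 1 log2 unit below every WT array. After saline the old Csb arrays read 7.31, 6.94 and 7.13, and the old WT arrays, at 7.36, 7.61 and 7.74, did not show the high level either (log2 difference -0.45, SE 0.30, limma adjusted p = 0.562). Within WT mice of 18 months, Ncoa4 was higher after NR than after saline by 2.12 (SE 0.27, limma adjusted p = 7.92e-05). Within Csb mice the same difference was 0.29 (SE 0.28, limma adjusted p = 0.721). The change of the genotype difference with NR was -1.84 (SE 0.39) and did not pass the threshold (limma adjusted p = 0.124). In young mice after saline, Csb arrays read 7.45, 7.18 and 7.16, against 9.55, 9.29, 9.19 and 9.58 on WT arrays (log2 difference -2.13, SE 0.28, limma adjusted p = 0.000788). In young mice after NR the difference was -1.23 (SE 0.28, limma adjusted p = 0.401), with 8.91 on the array labelled replicate 2 and 7.43 and 7.29 on the other Csb arrays. On the 4 diets Ncoa4 was called lower on each, with log2 differences of -1.80 on standard diet, -1.21 on high-fat diet, -1.56 under caloric restriction and -1.24 with resveratrol. Those diets called 13.8%, 8.63%, 0.296% and 18.4% of all probes, in that order. The low level in Csb was thus also measured without NR, and the 3 old saline WT arrays were the ones that stood apart among WT.

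Ncoa4 lies on chromosome 14, the chromosome of Ercc6, and is the 7th protein-coding gene from it in the RefSeq gene order. Chromosome 14 held 3.39% of the tested probes with a RefSeq gene (446 of 13141) and 3 of the 8 called probes. The other 2 called there were Tmem254a, farther out on the same side of Ercc6, and Entpd4, 443 protein-coding genes away on the other side. Of the 40 genes nearest to Ercc6, 20 on each side, 14 had tested probes. Of their 17 probes, 1 was called, Ncoa4, and 8 had a positive difference, with a median of -0.08 against -0.02 over all tested probes. On 2 of the 17 probes all Csb arrays lay above all WT arrays, and on 2, Ncoa4 among them, all lay below. Over all tested probes the shares were 1.38% above (192 of 13948) and 1.55% below (216 of 13948).

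**Figure D2:**
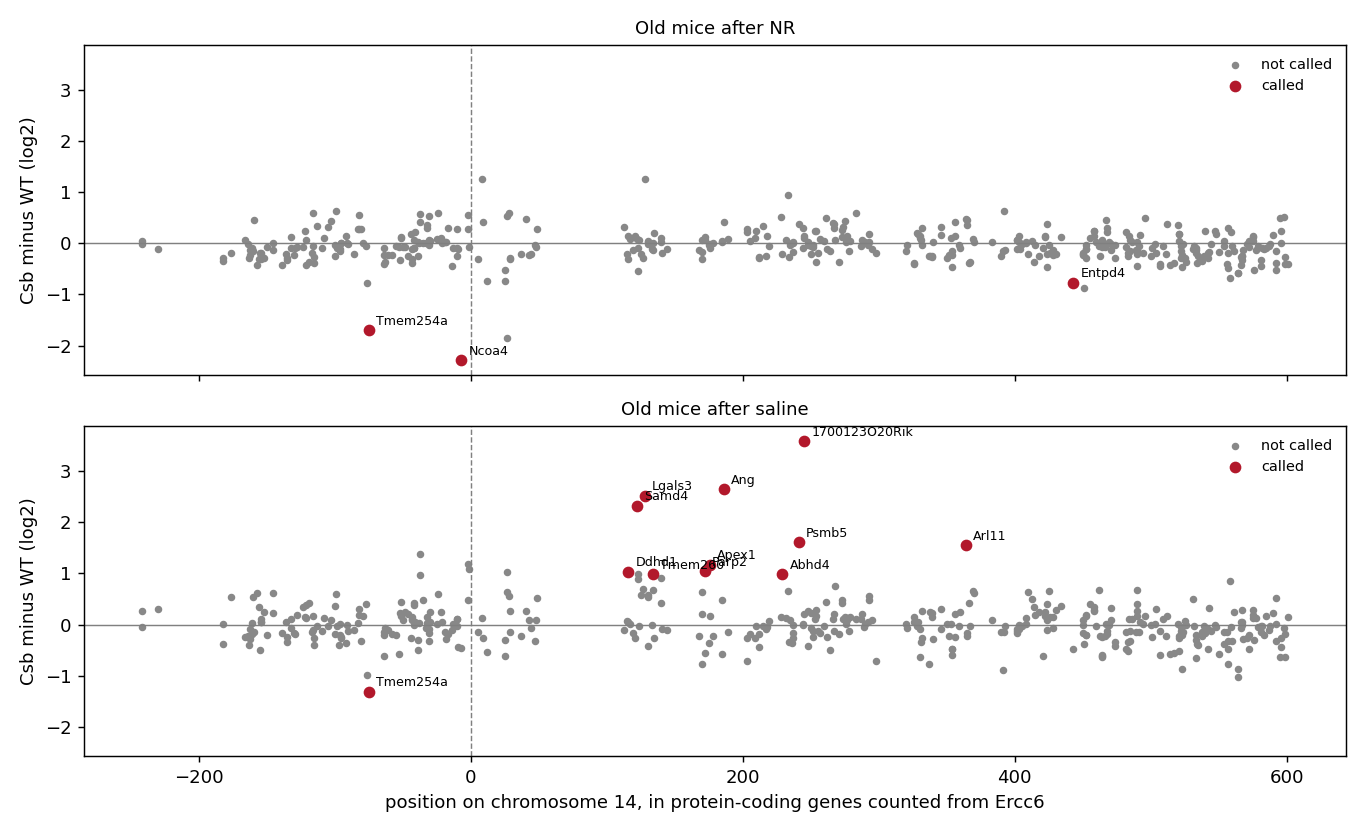
Each point is a tested probe on chromosome 14, placed by the number of protein-coding genes between its gene and Ercc6 (dashed line at 0), with the log2 difference Csb minus WT on the vertical axis; the upper panel gives old mice after NR and the lower panel old mice after saline, and red marks called probes. After NR the called probes are Tmem254a, Ncoa4 and Entpd4, all lower in Csb; after saline 12 probes were called on this chromosome, 11 of them higher in Csb.

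Tmem254a encodes a small membrane protein. Its probe ILMN_2693858 read 7.47, 7.54, 7.57 and 7.57 on the Csb arrays, against 9.67, 9.04, 8.74, 9.24 and 9.51 on the WT arrays. The log2 difference was -1.70 (SE 0.23, 3.26-fold, limma adjusted p = 0.000216). Over the whole injection arm its 13 Csb arrays lay between 7.25 and 8.22 and its 16 WT arrays between 8.74 and 10.17, with no overlap. It was called in all 4 injection comparisons of genotype, with log2 differences of -1.31 after saline in old mice, -1.80 after NR in young mice (where 0.0143% of probes were called) and -1.87 after saline in young mice. It was also called on all 4 diets, where 0.296% to 18.4% of all probes were called. Tmem254b and Tmem254c lie 8 and 4 genes away and are near-identical copies, so the probe may read more than 1 of these genes.

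Entpd4, a nucleoside diphosphatase of the Golgi and lysosomes, was lower by a small and very even amount. Its probe ILMN_2589312 read 11.59, 11.58, 11.61 and 11.58 on the Csb arrays, against 12.47, 12.32, 12.26, 12.32 and 12.41 on the WT arrays. The log2 difference was -0.77 (SE 0.13, 1.7-fold, limma adjusted p = 0.0111). With Csb replicate 1 or 2 left out, the limma adjusted p was 0.0566 or 0.0612. After saline in old mice the difference was -0.47 (SE 0.16, limma adjusted p = 0.271). In young mice the Csb and WT means were 11.94 and 12.16 after NR, and 11.69 and 12.15 after saline. The young Csb NR arrays spread from 11.59 to 12.55, with 12.55 on the array labelled replicate 2. On the 4 diets the difference ranged from -0.62 to -0.96 and was called on each, where 0.296% to 18.4% of all probes were called. A near-identical copy, Entpd4b, lies 4 genes away, and the probe may read both.

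Gpd2, the mitochondrial glycerol-3-phosphate dehydrogenase that passes electrons from cytosolic NADH to the respiratory chain, had the widest difference. Probe ILMN_1247257 read 8.04, 7.91, 7.94 and 8.22 on the Csb arrays, against 10.91, 11.26, 11.08, 11.25 and 11.07 on the WT arrays. The means were 8.03 ± 0.14 in Csb and 11.11 ± 0.15 in WT (SD, n = 4 and 5), a log2 difference of -3.09 (SE 0.38, 8.49-fold, limma adjusted p = 5.66e-05). A second probe, ILMN_1215797, did not follow it. It read 6.38, 6.86, 6.48 and 6.73 on the Csb arrays, against 6.98, 6.23, 7.31, 7.32 and 6.76 on the WT arrays (log2 difference -0.31, SE 0.18, limma adjusted p = 0.457). The low level of ILMN_1247257 was not shared by all Csb arrays. After saline the old Csb arrays read 8.19, 8.17 and 7.81, beside 11.01, 11.03 and 11.03 on WT arrays. In young mice after NR, however, Csb arrays read 10.22, 11.14 and 10.40, beside 10.43, 10.43, 10.34 and 10.52 on WT arrays. The value of 11.14 came from the doubtful array labelled replicate 2. In young mice after saline Csb arrays read 7.83, 11.05 and 7.91, beside 10.95, 10.40, 11.19 and 11.15 on WT arrays, so that 1 of 3 Csb arrays lay at the WT level. The genotype difference changed with age under NR by -3.25 (SE 0.57), the lowest adjusted p of that comparison, yet not past the threshold (limma adjusted p = 0.0805). On the diets Gpd2 was called lower on 3 of 4, with -1.28 on standard diet, -1.20 under caloric restriction and -1.71 with resveratrol. Those 3 diets called 13.8%, 0.296% and 18.4% of all probes. On the high-fat diet the Gpd2 difference was -0.52 (limma adjusted p = 0.194).

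**Figure D3:**
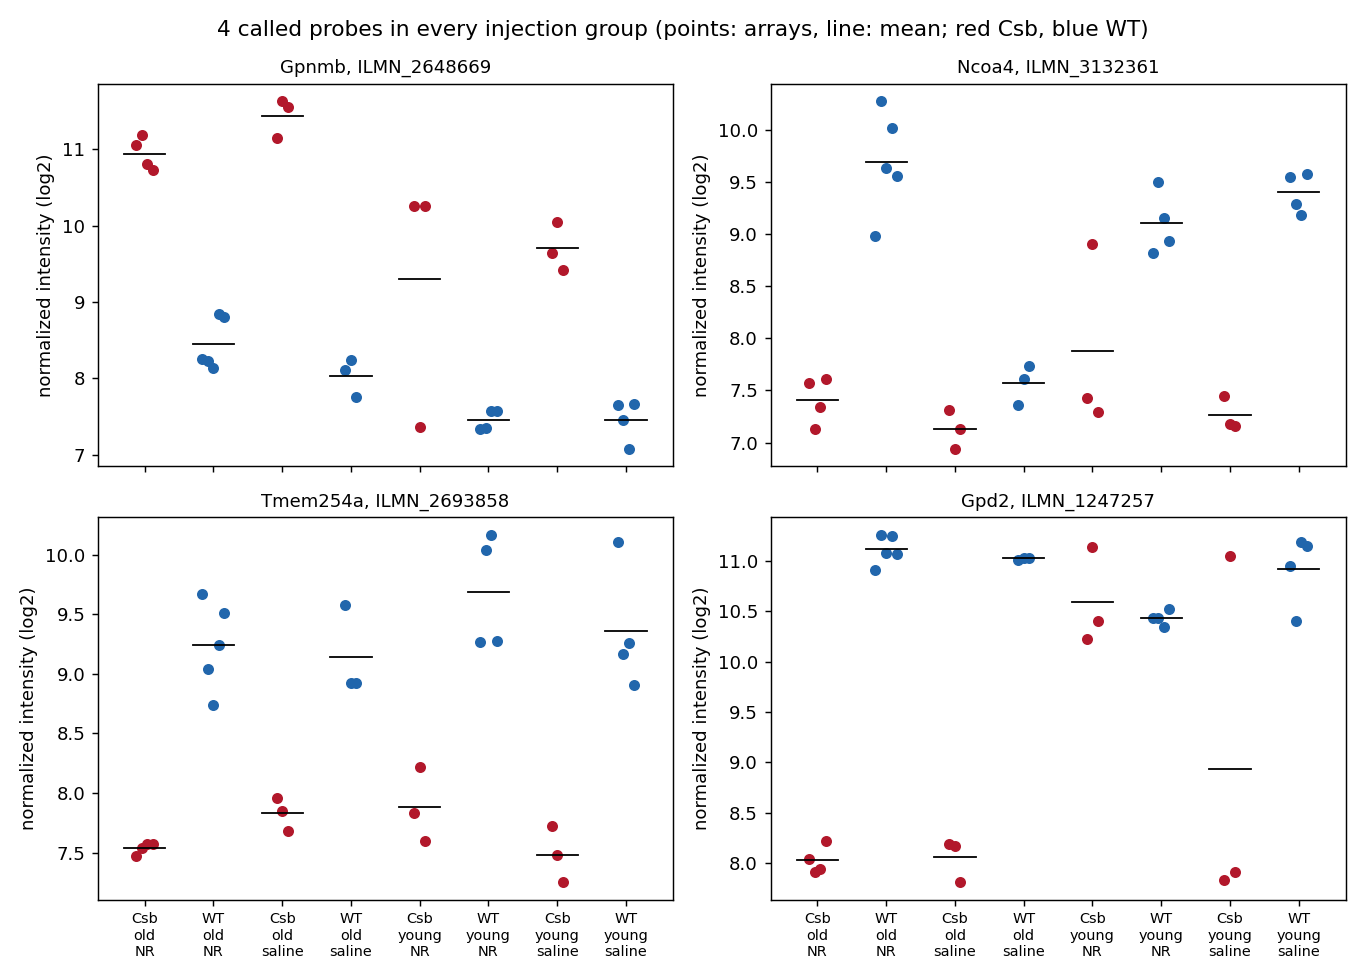
Normalized intensities (log2) of 4 called probes on all 29 injection arrays, grouped by genotype, age and treatment along the horizontal axis; points are arrays, red for Csb and blue for WT, and a black line gives the group mean. Gpnmb and Tmem254a part the genotypes in every group except for 1 young Csb NR array of Gpnmb (7.37); Ncoa4 is low in old WT saline arrays (7.36 to 7.74); Gpd2 is high on all 3 young Csb NR arrays and on 1 young Csb saline array (11.05).

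Thap4, on chromosome 1, encodes a protein with a DNA-binding THAP domain and a heme-binding domain. Its probe ILMN_2773540 read 7.37, 7.65, 7.56 and 8.04 on the Csb arrays, against 9.59, 9.0, 9.50, 9.66 and 9.74 on the WT arrays. The log2 difference was -1.84 (SE 0.34, 3.59-fold, limma adjusted p = 0.0201). This call was not firm, because leaving out a single array raised the limma adjusted p to between 0.0504 and 0.164 for 6 of the 9 arrays, namely Csb replicates 1, 2 and 3 and WT replicates 3, 4 and 5. After saline in old mice the difference was -1.38 (SE 0.41, limma adjusted p = 0.202). In young mice it was -0.50 after NR (SE 0.38, limma adjusted p = 0.999) and -0.70 after saline (SE 0.38, limma adjusted p = 1). Over the injection arm 10 of 13 Csb arrays lay inside the range of the 16 WT arrays. That range reached down to 7.37 on 1 young saline WT array, and every other WT array read 8.31 or more. In the young NR group the array labelled Csb replicate 2 read 9.28, and the other Csb arrays read 7.70 and 7.22. On the 4 diets the difference ranged from -1.03 to -1.45 and was called on each, where 0.296% to 18.4% of all probes were called. Stk25, a kinase gene on the same chromosome, was not called with all arrays and was called lower without the doubtful young array (-0.65, SE 0.12, limma adjusted p = 0.0153). It was named after its values were seen.

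Inpp5f, on chromosome 7, encodes a phosphoinositide phosphatase of endosomes. Its probe ILMN_2785512 read 11.29, 11.38, 11.61 and 11.48 on the Csb arrays, against 11.90, 11.81, 11.93, 12.24 and 11.80 on the WT arrays. The log2 difference was -0.50 (SE 0.10, 1.41-fold, limma adjusted p = 0.0441), the smallest of the 8. The other 2 Inpp5f probes, ILMN_2619389 and ILMN_2619390, were dim, with overlapping groups and log2 differences of -0.45 and -0.49 (limma adjusted p = 0.387 and 0.432). After saline in old mice it was 0.04 (SE 0.12, limma adjusted p = 0.929), and on the 4 diets it ranged from -0.16 to -0.02 with no call. The change with NR in old mice, -0.53 (SE 0.15), did not pass the threshold (limma adjusted p = 0.777). Under 10 of the 19 other settings tried the call was lost, with limma adjusted p-values of 0.00138 to 0.474 over all of them.

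The comparisons quoted for the diets called far more probes than the one after NR. Of 14883 tested probes, 2054 were called between Csb and WT on standard diet (13.8%), 1285 on high-fat diet (8.63%), 44 under caloric restriction (0.296%) and 2737 with resveratrol (18.4%). A call on standard diet, high-fat diet or resveratrol is therefore common among all probes there, and the diet mice were 1 year old per the labels, in groups of another size.

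With limma, 0 probes of 32 gene lists were called. The lists covered 19 pathways and the markers of 13 cell types or regions, and 669 tested probes belonged to at least 1 of them, 164 of these with an unadjusted p under 0.05. The lists are therefore described by their counts, beside 0.0574% called and a median log2 difference of -0.02 over all probes, with 46.6% of probes higher in Csb.

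The list that lay farthest from that median was complement and inflammation, with a median of 0.87. Of its 21 probes 19 had a positive difference, and for 8 of 21 all 4 Csb arrays lay above all 5 WT arrays, where 1.38% of all probes did so. Ccl3, a chemokine of activated microglia, read 7.12, 6.88, 7.48 and 6.97 on the Csb arrays, against 6.21, 4.97, 5.34, 5.25 and 6.03 on the WT arrays (log2 difference 1.55, SE 0.35, limma adjusted p = 0.119). It was detected on 4 of 4 Csb arrays and on 2 of 5 WT arrays. Lgals3, galectin-3 of phagocytes, read 10.38, 10.40, 10.35 and 10.32 on the Csb arrays, against 9.64, 7.70, 9.04, 9.36 and 9.75 on the WT arrays (log2 difference 1.26, SE 0.32, limma adjusted p = 0.16). The Csb arrays of Lgals3 were close together (SD 0.03) and the WT arrays far apart (SD 0.83). Lgals3 lies on chromosome 14, as Ercc6 does. Cst7, a lysosomal protease inhibitor, was detected on 4 of 4 Csb arrays and on 0 of 5 WT arrays and was at least 1.48-fold higher in Csb (limma adjusted p = 0.161). C1qa, a chain of complement C1q, averaged 8.93 ± 0.34 in Csb and 7.95 ± 0.54 in WT (SD, n = 4 and 5), with overlap at 1 Csb array.

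Microglia markers gave a median of 0.53, with 9 of 11 probes positive. Trem2, the lipid receptor of microglia, averaged 9.02 ± 0.26 in Csb and 7.96 ± 0.56 in WT, and its adaptor Tyrobp averaged 8.07 ± 0.23 in Csb and 6.94 ± 0.75 in WT (SD, n = 4 and 5). The groups did not overlap for either (limma adjusted p = 0.167 and 0.181). Of the 11 probes, 3 had all Csb arrays above all WT arrays and 1 had all below. Over all tested probes these shares were 1.38% and 1.55%. P2ry12, the purine receptor of resting microglia, ran the other way and was the 1 below. It read 6.11, 6.39, 6.42 and 6.42 on the Csb arrays, against 7.24, 6.77, 6.52, 7.39 and 7.34 on the WT arrays (log2 difference -0.72, SE 0.21, limma adjusted p = 0.162). Without the doubtful young array, Ccl3 passed the threshold (1.55, SE 0.25, limma adjusted p = 0.00352). So did Fcgr2b, an inhibitory antibody receptor (0.93, limma adjusted p = 0.0329), Lyz1, a lysozyme (0.98, 0.0342), and Igf1, a growth factor made by several cell types (0.69, 0.0315). These 3 were named after their values were seen, from 10 probes called in that setting and not with all arrays. Of the other 6, Aspg (0.96), Cyp4f18 (1.09) and the probe ILMN_2689785 with no gene (1.27) were higher, and Stk25 (-0.65), Sik3 (-0.93) and Gtpbp8 (-0.62) were lower.

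The levels of both lists varied among WT arrays. The mean over the inflammation list was 8.55, 8.65, 8.63 and 8.36 on the Csb arrays, against 7.83, 7.42, 7.43, 7.71 and 7.95 on the WT arrays, with no overlap. The mean over the microglia markers was 8.49, 8.29, 8.38 and 8.10 on the Csb arrays, against 8.28, 7.49, 7.28, 7.89 and 8.25 on the WT arrays, where 2 WT arrays lay within the Csb range. Without WT replicates 2 and 3 together, a setting chosen after the data were seen, the median differences were 0.59 for inflammation and 0.24 for microglia. After saline in old mice the medians were 1.13 for inflammation and 0.72 for microglia. The part of the variation among WT arrays in these differences was not tested.

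**Figure D4:**
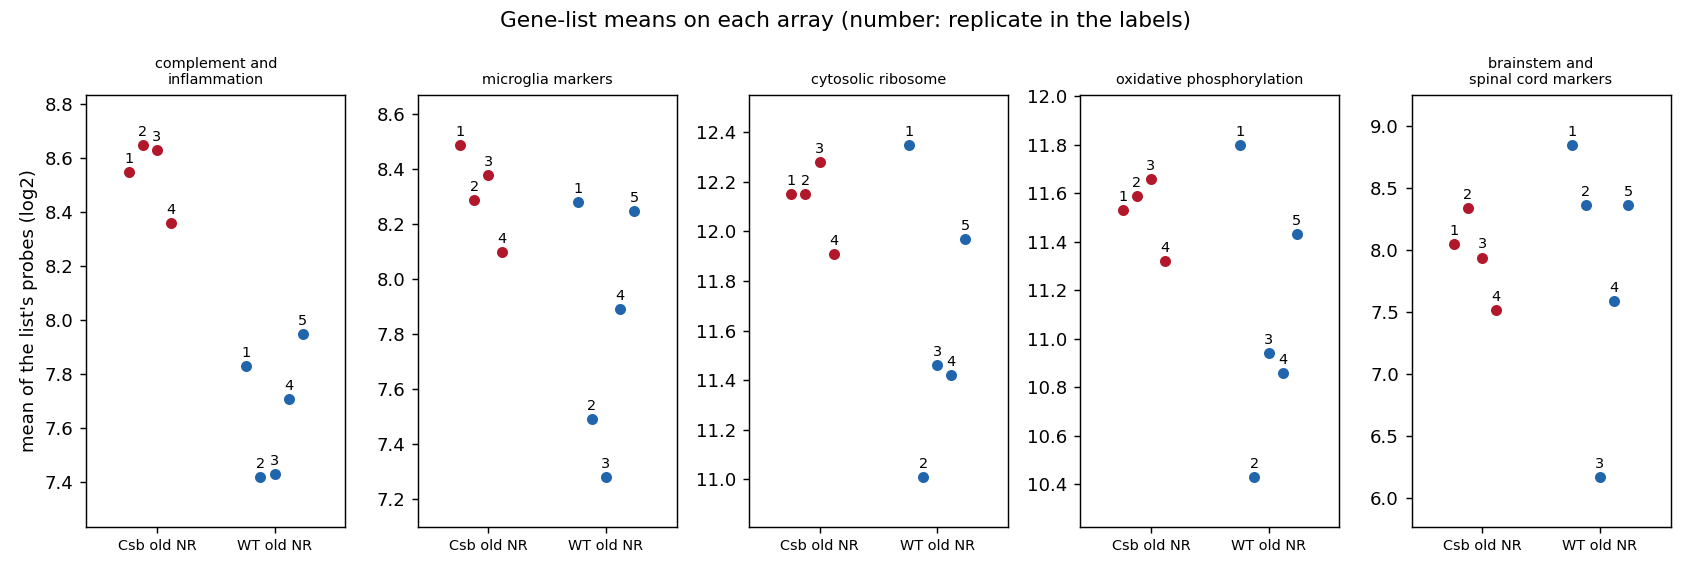
Mean normalized intensity (log2) over the probes of 5 gene lists on each array of 18-month-old NR-treated mice, Csb in red at the left and WT in blue at the right of each panel, with the replicate number beside each point. The inflammation list parts the genotypes on every array; for the ribosome and respiratory chain lists WT replicate 1 (12.35 and 11.80) lies above all 4 Csb arrays while WT replicates 2, 3 and 4 lie below them.

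Ribosomal protein and respiratory chain genes had positive medians with overlap on every probe. The cytosolic ribosome list had 44 of 49 probes positive with a median of 0.56, and the oxidative phosphorylation list had 74 of 83 positive with a median of 0.48. On 0 probes of either list did the groups separate. The mean over ribosomal probes was 12.15, 12.15, 12.28 and 11.91 on the Csb arrays, against 12.35, 11.01, 11.46, 11.42 and 11.97 on the WT arrays. For the respiratory chain it was 11.53, 11.59, 11.66 and 11.32 on the Csb arrays, against 11.80, 10.43, 10.94, 10.86 and 11.43 on the WT arrays. In both lists WT replicate 1 was the highest of all 9 arrays and WT replicate 2 the lowest. Rpl29, a protein of the large ribosomal subunit, had the lowest adjusted p of the ribosome list (log2 difference 0.72, SE 0.16, limma adjusted p = 0.114). Ndufs6, a subunit of complex I, had a log2 difference of 0.91 (SE 0.25, limma adjusted p = 0.162), and Uqcr10, a subunit of complex III, of 0.81 (SE 0.23, limma adjusted p = 0.162). Without WT replicates 2 and 3 the medians were 0.24 and 0.14.

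The number of calls depended on WT replicate 1 and on the weight given to each array. Without WT replicate 1, 839 probes were called (6.02%), 622 higher and 217 lower, among them all 8. Then 34 of 49 ribosomal probes and 48 of 83 respiratory chain probes were called higher, as were 6 of 21 in the inflammation list and 3 of 11 microglia markers. Of the Purkinje cell markers 2 of 7 were called higher, Gng13 (1.28) and Pcp2 (0.89). Of the antioxidant response 3 of 28 were called higher, and of NAD metabolism 2 of 13 were called, Naprt higher (0.54) and Nmnat2 lower (-0.81). Of the 32 lists, 16 had at least 1 probe called in that setting. The 6 of the inflammation list were Ccl3, Ccl4, Lgals3, Cst7, C1qa and C1qc, with log2 differences of 0.77 to 1.93, and the 3 microglia markers were Fcer1g, Trem2 and Tyrobp, with 1.20 to 1.54. Weighting each array by its spread, which gave WT replicates 1, 2 and 3 weights of 0.369, 0.299 and 0.461, called 1236 probes (8.86%), 789 higher and 447 lower. Leaving out WT replicates 2 and 3 in place of replicate 1 gave 8 calls, 7 of them the same, with Inpp5f lost and the Sncg probe ILMN_2939277 gained. Leaving out Csb replicate 1 or 2 gave 5. Gpnmb, Gpd2, Ncoa4, Tmem254a, Entpd4 and Thap4 were called without WT replicate 1, with array weights and without WT replicates 2 and 3.

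Markers of tissue next to the cerebellum also varied. Hoxa5, a gene of hindbrain and spinal cord, read 9.81, 10.48, 9.29 and 9.21 on the Csb arrays, against 11.28, 9.13, 4.88, 6.85 and 10.28 on the WT arrays. The mean over 16 brainstem and spinal cord probes had an SD of 0.34 over Csb arrays and of 1.05 over WT arrays, with means of 7.96 and 7.87. It was highest on WT replicate 1 (8.85) and lowest on WT replicate 3 (6.17), and its part in the other differences was not tested. The list median was 0.06 with 11 of 16 probes positive. Sncg, a synuclein of brainstem and peripheral neurons encoded on chromosome 14, was read by a pair of tested probes that disagreed. ILMN_2939277 was detected on 0 of 4 Csb arrays and on 4 of 5 WT arrays, at least 2.56-fold lower in Csb, and was not called (limma adjusted p = 0.161). ILMN_2598478 had a log2 difference of 0.54 (SE 0.64, limma adjusted p = 0.748). After saline in old mice the log2 differences were 0.64 for ILMN_2939277 and 1.02 for ILMN_2598478, neither of them called. In young mice after NR, ILMN_2939277 read 5.67, 5.88 and 5.50 on Csb arrays, against 6.61, 8.38, 8.18 and 7.84 on WT arrays. In young mice after saline it read 5.90, 5.19 and 4.98 on Csb arrays, against 8.01, 6.33, 6.38 and 5.81 on WT arrays.

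Genes of DNA repair and NAD+ metabolism lay near the median of all probes. Transcription-coupled repair had a median of 0.04 with 12 of 23 probes positive, and on no probe did the groups separate. NAD metabolism had a median of 0.01 with 7 of 13 positive. Nmnat2, an enzyme of NAD+ synthesis in neurons, read 6.61, 6.51, 6.66 and 6.38 on the Csb arrays, against 6.32, 7.54, 7.49, 7.31 and 7.06 on the WT arrays (log2 difference -0.60, SE 0.20, limma adjusted p = 0.189). The WT arrays other than replicate 1 lay above all Csb arrays. Nmrk1, a kinase that phosphorylates NR on entry, had a log2 difference of -0.17 (SE 0.14, limma adjusted p = 0.615). Naprt, of the nicotinic acid route, had 0.45 (SE 0.14, limma adjusted p = 0.177). Sirtuins and PARPs had a median of 0.03 with 10 of 15 positive. Sirt7, a nuclear sirtuin, read 11.40, 11.61, 11.39 and 11.44 on the Csb arrays, against 11.24, 11.05, 11.33, 10.92 and 10.88 on the WT arrays (log2 difference 0.37, SE 0.11, limma adjusted p = 0.166). Parp1, the main PARP of DNA breaks, had -0.21 (SE 0.16, limma adjusted p = 0.596).

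Cholesterol synthesis had a median of -0.18, with 3 of 16 probes positive and 4 of 16 on which all Csb arrays lay below all WT arrays, where 1.55% of all probes did so. Hmgcs1, which makes HMG-CoA for the pathway, read 13.16, 12.98, 13.06 and 13.24 on the Csb arrays, against 13.47, 14.04, 13.40, 13.74 and 13.71 on the WT arrays (log2 difference -0.56, SE 0.14, limma adjusted p = 0.151). Sc5d and Dhcr7, of the last steps, had -0.68 (SE 0.23) and -0.56 (SE 0.20), and neither was called. Mvd, of the mevalonate steps, had the opposite sign (0.42, SE 0.14, limma adjusted p = 0.189).

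The other pathway lists had medians between -0.17 and 0.50. Genes that respond to corticosteroids had 0.50 (17 of 21 positive), MHC and antigen presentation 0.27 (16 of 20), type I interferon response 0.15 (16 of 22) and antioxidant response 0.15 (19 of 28). Lcn2, an acute-phase protein that binds iron carriers, read 6.69, 8.88, 8.85 and 6.03 on the Csb arrays, against 5.46, 5.25, 5.32, 5.63 and 6.83 on the WT arrays (limma adjusted p = 0.287). Its high level was thus on 2 of the 4 Csb arrays. Synapse and calcium signalling had a median of 0.04, circadian clock 0.03, mitophagy and autophagy -0.01, and DNA damage and p53 targets -0.01. Glycolysis and lactate had -0.08, heat shock and unfolded protein response -0.11, immediate early genes -0.15, and fat oxidation and ketone use -0.17.

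Among cell markers, Purkinje cells had a median of 0.21 (6 of 7 positive), choroid plexus 0.19 (12 of 15), blood 0.07 (3 of 6) and midbrain and forebrain 0.03 (7 of 13). Gng13, a G protein subunit of Purkinje cells, read 13.15, 13.26, 13.42 and 12.71 on the Csb arrays, against 12.91, 11.08, 12.61, 11.58 and 12.15 on the WT arrays (log2 difference 1.07, SE 0.25, limma adjusted p = 0.141). Astrocytes and Bergmann glia had a median of -0.03, meninges -0.03, oligodendrocyte precursors -0.06 and granule neurons -0.09. Cerebellar interneurons had -0.10, oligodendrocytes -0.12, and endothelium and mural cells -0.15.

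Whether NR changed the genotype difference in old mice was tested as the difference after NR minus the difference after saline. Of 13948 probes, 5 were called (0.0358%), all negative and all on chromosome 14, while 873 had an unadjusted p under 0.05. They were 1700123O20Rik, Samd4, an RNA-binding repressor of translation, Ang, the ribonuclease angiogenin, Abhd4, a lipase of N-acyl phospholipids, and Apex1, the endonuclease of base excision repair. After NR none of the 5 differed past the threshold between the genotypes, with log2 differences of -0.20 to 0.41. For 1700123O20Rik and Apex1 another tested probe did not follow the called one. These probes, ILMN_2999447 and ILMN_2918114, had genotype differences after saline of 0.21 and 0.17, against 3.59 and 1.17 on the called probes. Samd4 read 9.57, 9.16, 8.95 and 8.72 on the Csb NR arrays, against 9.09, 9.19, 8.92, 8.90 and 9.0 on the WT NR arrays. After saline it read 9.12, 9.08 and 8.73 on the Csb arrays, against 6.90, 6.46 and 6.60 on the WT arrays. The change in the difference was -2.24 (SE 0.26, limma adjusted p = 2.29e-05).

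The arrays that stood apart at these 5 probes were the 3 of old WT saline mice. 1700123O20Rik lay between 7.69 and 8.74 on the other 26 injection arrays and was not detected on any of those 3, which read 4.63, 4.69 and 4.42. Ang was not detected on those 3 arrays either, so the changes at both probes have no exact size. Apex1 read 9.86, 9.75, 9.91 and 9.95 on the old Csb NR arrays, against 9.95, 9.67, 9.90, 9.97 and 9.90 on the old WT NR arrays. After saline it read 9.98, 9.94 and 10.10 on the Csb arrays, against 8.89, 8.69 and 8.94 on the WT arrays. Within old WT mice, 10 probes were called between NR and saline (0.0717%), all higher after NR, and 9 of them were on chromosome 14. Besides the 5 above, these were Parp2, Psmb5, Tmem260 and Ncoa4, with Ogfod3 on chromosome 11. Parp2 and Tmem260 each had another tested probe. Its genotype difference after saline was -0.56 for Parp2 and 0.67 for Tmem260, against 1.04 and 0.99 on the called probes. Within old Csb mice 0 probes were called between NR and saline (0%), with 1486 at an unadjusted p under 0.05 and a lowest limma adjusted p of 0.197.

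After saline, 32 probes had been called between old Csb and old WT, 28 higher and 4 lower. Of these, 29 kept their sign after NR and 4 were called again in the same direction, both Gpnmb probes, Gpd2 and Tmem254a. Their median absolute log2 difference was 0.47 after NR, against 1.37 after saline, in a set chosen for its size after saline. Lgals3, which lies on chromosome 14, was one of them, with a log2 difference of 1.26 after NR.

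**Figure D5:**
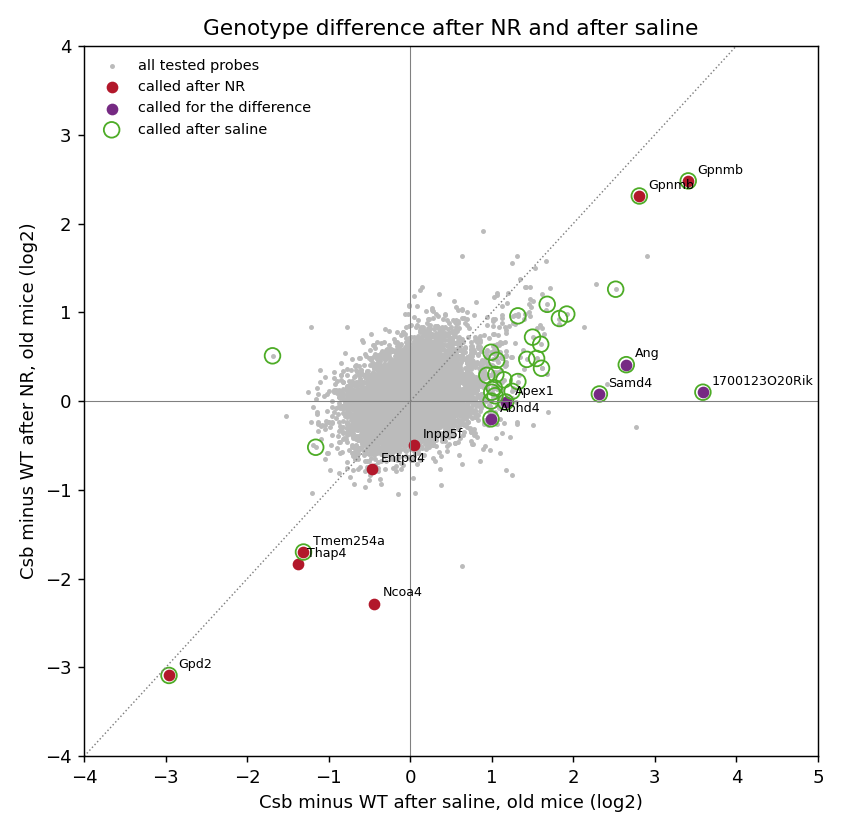
Each point is 1 of 13948 tested probes, with the log2 difference Csb minus WT in old mice after saline on the horizontal axis and after NR on the vertical axis; the dotted line marks equal differences, and colours mark called probes. Gpnmb, Gpd2 and Tmem254a lie far from 0 on both axes, while the 5 probes called for the difference lie between -0.20 and 0.41 after NR and between 0.99 and 3.59 after saline.

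Whether the genotype difference under NR changed with age was tested in the same way against the 4-month-old NR mice. With limma 0 probes were called (0%), with 1303 at an unadjusted p under 0.05 and a lowest adjusted p of 0.0805, that of Gpd2. Leaving out the array labelled Csb replicate 2 of the young NR group also gave 0 calls, with 1036 at an unadjusted p under 0.05. Between 18 and 4 months under NR, 2 probes were called within Csb (0.0143%) and 1978 within WT (14.2%), but with 0 calls for the change in the difference these counts do not show that the genotypes aged differently.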

How the data were processed

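The authors deposited, per the file headers, an unnormalized linear intensity of 25697 probes on 71 arrays, each with a detection p-value beside it. The submitters' processing notes name GenomeStudio 1.9.0, and other upstream steps were not given in the sources used here. The deposited series matrix holds scores, which were found to be z-scores of the log intensities of each array and served as an alternative. The table names no chip or scan date, so no batch could be entered. The comparison's members and the gene lists were chosen with earlier results of these data known.

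From the 29 injection arrays, limma 3.58.1 in R 4.3.3 corrected background from the detection p-values (neqc, offset 16), applied quantile normalization and took log2. Probes with a detection p under 0.01 on at least 3 arrays were kept (13948). One linear model over 8 groups (lmFit, eBayes) gave log2 differences, SEs and two-sided moderated p-values, adjusted by Benjamini-Hochberg over all kept probes. The 42 diet arrays were processed in the same way on their own. The script was tested on simulated data. Where 1 group detected a probe on no array, the fold is the mean of the brighter group over the dimmer group's detection floor, and log2 differences there have no exact size.

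Genes come from GEO's platform annotation, with 23978 probes having 1 symbol, 0 several and 1719 none; 23962 symbols were matched by gene ID to RefSeq GRCm38.p6, used for names, chromosomes and gene order only, as the files name no build. Named genes were all called probes with a symbol and up to 4 probes of lowest p in each list, of which some are described; genes outside this rule are marked. The alternatives were no background correction, z-scores per array, no filter, fits of fewer groups, array weights, a replicate block, the authors' processed values and leaving out arrays; leaving out WT replicates 2 and 3 together was added after the data were seen. The table held 0 unused sample columns.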

Additional observations from a re-analysis of the deposited data

Results flagged for a closer look

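In sets of 4 or 5 arrays, an array was marked where its gap to the nearest other array was large for the range of its group (Dixon's test at the 95% level). Of 96 sets tested, 5 were marked, and chance alone would mark about 5. None was among the 8 called probes. They were Csb replicate 1 for P2ry12 (6.11) and for Nmrk1 (6.36), both lower than the other 3 Csb arrays, and Csb replicate 4 for Rps20 (13.80), Ndufs6 (12.45) and Uqcr10 (13.25), again lower than the other 3.

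The genotype difference in old mice differed between NR and saline, by limma's test of the difference itself, at 5 probes. The difference after NR minus that after saline was -3.50 for 1700123O20Rik, -2.24 for Samd4, -2.23 for Ang, -1.19 for Abhd4 and -1.18 for Apex1. All 5 genes lie on chromosome 14, and at all 5 probes the 3 old WT saline arrays had the lowest levels of the 29 injection arrays. The values of 1700123O20Rik and Ang have no exact size, since those 3 arrays did not detect either.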

How the results depend on the processing

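With limma, 8 probes were called between old Csb and old WT after NR. Array weights gave 1236. Leaving out 1 array at a time, including Csb replicate 2 of the young NR group, gave 5 to 839, with the highest count without WT replicate 1 and 5 without Csb replicate 1 or 2; without the young array it was 18. The replicate block gave 8, of which 6 were the same, with Thap4 (adjusted p = 0.0528) and Entpd4 (0.0531) lost. Replicate numbers did not pair the arrays (correlations of same-numbered deviations from -0.0858 to 0.297). The other settings gave 7 or 8. Over all 19 settings no called probe changed sign; both Gpnmb probes, Gpd2, Ncoa4 and Tmem254a stayed called in every one, Entpd4 in 16, Thap4 in 11 and Inpp5f in 9. For the change of the genotype difference with NR, called at 5 probes, a fit of the 4 old groups alone gave 3 and array weights gave 14, while leaving out single arrays gave 5 to 7. For its change with age, called at 0 probes, the fit of the NR groups alone gave 1 and array weights gave 852, and leaving out any single array gave 0. The replicate block changed no call count of these 2 tests (5 and 0). Beyond the array weights and array removal named here, the causes of these shifts were not tested. Dim probes limit the rest, since a level near background carries no exact fold.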
